A study of Homo sapiens with 6 samples.

Results

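Replication-dependent core histone genes encode the H2A, H2B, H3 and H4 proteins that package newly copied DNA. They were followed in the human colorectal cancer line RKO by RNA sequencing of 3 libraries with a hairpin against TRMT6 (shTRMT6) and 3 libraries with a control hairpin (shControl). No source used here gives the hairpin sequences, the time after their introduction or whether replicates come from separate cultures. The p-values therefore reflect only differences among libraries, which may be technical. Of 20289 genes in the deposited table, 56 were taken by symbol (H2AC, H2BC, H3C or H4C with a number, and the 2 genes HIST2H2AA3 and HIST2H2AA4, now named H2AC18 and H2AC19), with no filter on level. H2BC5, H2BC12, H2BC21, H2BC4, H2AC6, H4C8 and H4C14 were left out of the 56 with earlier results of these data known, as a group described for its rise; they serve below as a comparison.

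A nucleosome holds pairs of each core histone, and cells make most of this protein in S phase from clustered, mostly intronless genes. Their mRNAs are the classical exception to polyadenylation: a stem-loop near the 3′ end is bound by SLBP, and the transcript is cut just after it by the U7 small nuclear ribonucleoprotein with cleavage factors such as CPSF3. Some of these genes also give longer, polyadenylated transcripts that run past the stem-loop. TRMT6 pairs with TRMT61A, which holds the active site, to make 1-methyladenosine in tRNA, and the title of the study names histone synthesis. Per the labels' protocols the libraries were made from enriched mRNA; no source used here says whether enrichment relied on poly(A).

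The stem-loop that defines these mRNAs was found in the annotated transcripts of 25 of the 56 genes, against 0.0856% of 19861 other protein-coding genes. The 6 sequences here show 1 or more genes of each class. They are from GENCODE release 29 transcripts, 5′ to 3′, with the 16 bases of the stem-loop in capitals and 5 bases on each side.
HIST2H2AA4: caaaaGGCTCTTTTCAGAGCCaccca
H2BC8: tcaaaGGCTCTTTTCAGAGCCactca
H2BC13: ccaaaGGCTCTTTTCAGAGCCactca
H3C10: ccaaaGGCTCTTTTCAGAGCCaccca
H4C5: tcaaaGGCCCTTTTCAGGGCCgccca
H4C11: taaaaGGCCCTTTTCAGGGCCaccct
The letters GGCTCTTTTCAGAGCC were shared by 5 H2A, 7 H2B and 3 H3 genes. The 6 H4 genes with a stem-loop had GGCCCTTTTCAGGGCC (4 genes) or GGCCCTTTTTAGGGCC (2 genes). H2BC8 and H2BC13 have the same 16 bases, and below the first rose while the second did not pass the test.

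TRMT6 itself read 1.58, 1.73 and 1.09 FPKM (fragments per kilobase of gene, scaled to library size) in shTRMT6 and 14.43, 17.96 and 16.85 FPKM in shControl. The groups did not overlap (log2 fold change -2.82, limma adjusted p = 4.33e-08; an exact two-sided permutation test gave p = 0.1, its lower limit with 3 and 3 libraries). Depth, estimated from the steps between low values, was about 17900000 to 20100000 fragments in shTRMT6 and 21100000 to 28300000 fragments in shControl. At these depths 1 fragment would be worth 0.124 to 0.14 FPKM in shTRMT6 and 0.0883 to 0.118 FPKM in shControl for a transcript of 400 bases. Many low values below thus rest on a few fragments. This worth is rough, since some short genes read below it. H2AC4, of 393 bases, read 0.09 and 0.10 FPKM in shTRMT6 replicates 1 and 2 and 0.09 FPKM in shControl replicate 1. Of 7 epithelial markers, KRT18, KRT8, EPCAM and CDX2 were detected (summed 201.0 to 213.6 FPKM in shTRMT6 and 123.6 to 156.1 FPKM in shControl), while CDH1, VIL1 and KRT19 were listed at 0 in all 6 libraries. The 10 markers of blood, endothelial, stromal and liver cells summed to 3.06 to 3.53 FPKM in shTRMT6 and 1.10 to 11.89 FPKM in shControl, where 10.74 FPKM came from ALB in replicate 2. Of the 10, ACTA2, a smooth muscle and myofibroblast actin, rose with the histone genes, at 2.75, 2.55 and 3.14 FPKM in shTRMT6 and 0.73, 0.92 and 0.68 FPKM in shControl (limma adjusted p = 9.13e-05). Its shControl mean was 0.777 FPKM, so it passed the filter for testing, a mean of 1 FPKM, only through its shTRMT6 level. CD14, of monocytes, read 0.22, 0.36 and 0.28 FPKM in shTRMT6 and 0.03, 0.13 and 0.10 FPKM in shControl and was too low to test. CD3E was listed at 0 throughout, and PTPRC and VWF reached at most 0.02 FPKM; the part of other cells in the histone values was not tested.

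Most core histone genes that could be tested were higher after TRMT6 knockdown. Of the 56 genes, 9 were listed at 0 in every library, 28 were above 0 with a mean under 1 FPKM and were not tested, and 19 averaged 1 FPKM or more across the libraries. Of the 19, 15 rose, 2 fell and 2 did not pass (limma on log2(FPKM + 1), adjusted p under 0.05 over all 10592 genes tested). The share of all tested genes was 19.3% higher and 16.1% lower. In the same 15 every shTRMT6 library exceeded every shControl library and in the 2 every one was below, which held for 26.2% and 22.1% of all tested genes. The median log2 fold change of the 19 was 1.23, against 0.024 over all tested genes. Of the 19, 7 had a shControl mean under 1 FPKM and passed the filter only through their shTRMT6 level, so the count of 15 and the median are partly set by the filter. In bulk RNA, a change in the share of cells in S phase cannot be told apart from a change in RNA per cell.

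**Figure D1:**
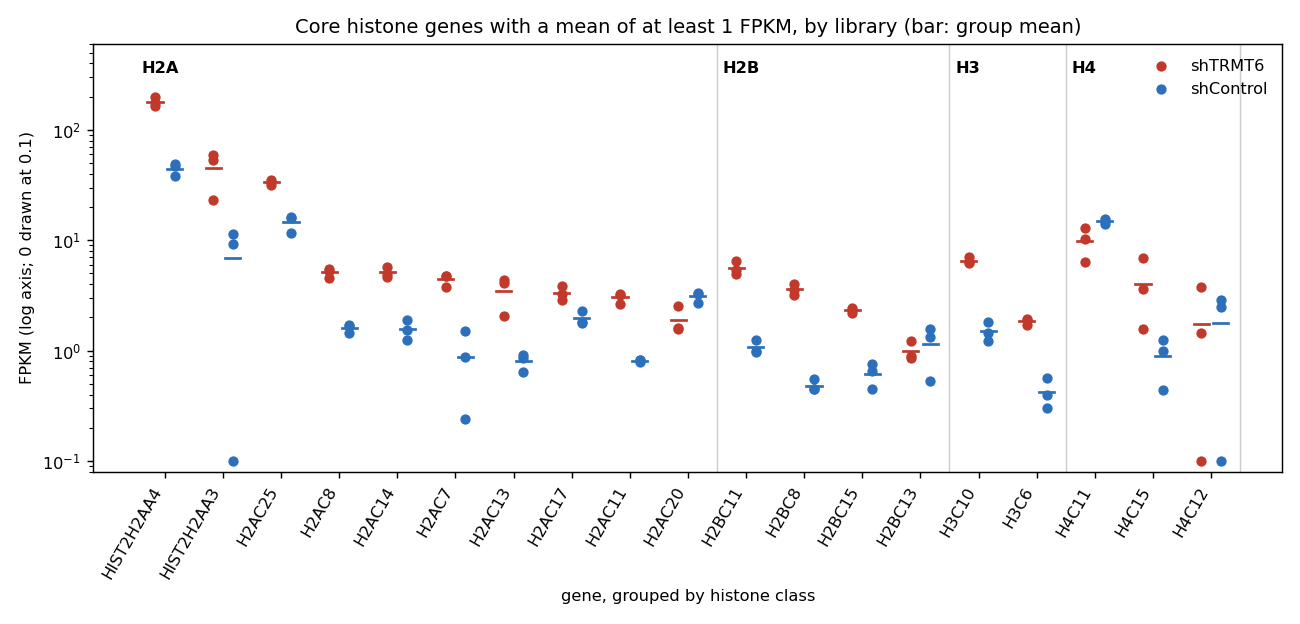
FPKM (log axis) of the 19 tested core histone genes in the 3 shTRMT6 libraries (red) and the 3 shControl libraries (blue), with the group means as bars and values of 0 drawn at 0.1. The red points lie above the blue points in 15 genes and below them in H2AC20 and H4C11; they overlap in H2BC13 and H4C12.

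Among the 56 genes, H2A genes held most of the summed FPKM and most of the tested genes. Of the tested H2A genes 9 of 10 rose and H2AC20 fell, where 19.3% of all tested genes rose. Of the 9, H2AC7, H2AC11 and H2AC13 had shControl means under 1 FPKM and passed the filter only through their shTRMT6 level. HIST2H2AA4 (chromosome 1, bases 149851061 to 149851624 in GENCODE release 29, GRCh38) was the most abundant of the 56. It read 200.47, 174.52 and 164.13 FPKM in shTRMT6 and 46.72, 38.51 and 48.73 FPKM in shControl. The lowest shTRMT6 library stood well above the highest shControl library, and the mean was 4.02-fold higher (log2 fold change 1.99, SE 0.11, adjusted p = 2.76e-07).

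Its near-identical copy HIST2H2AA3 read 23.15, 53.07 and 59.16 FPKM in shTRMT6, against 11.47, 9.25 and 0 FPKM in shControl. Every window of 75 bases of HIST2H2AA3 also occurs in HIST2H2AA4, so how fragments were divided between them is uncertain, and an exact 0 may be a failed estimate. The sum of both is not touched by that division: it was 223.62, 227.59 and 223.29 FPKM in shTRMT6 and 58.19, 47.76 and 48.73 FPKM in shControl. The sum was steadier than either copy in shTRMT6, with an SD of 2.39 FPKM against 18.7 for HIST2H2AA4 alone, and its mean was 4.36-fold higher. Taken alone, HIST2H2AA3 had a log2 fold change of 3.09 (SE 0.69, adjusted p = 0.00417), and the call was lost when the prior was made robust (adjusted p = 0.125) or when low genes were kept in (adjusted p = 0.0664).

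**Figure D2:**
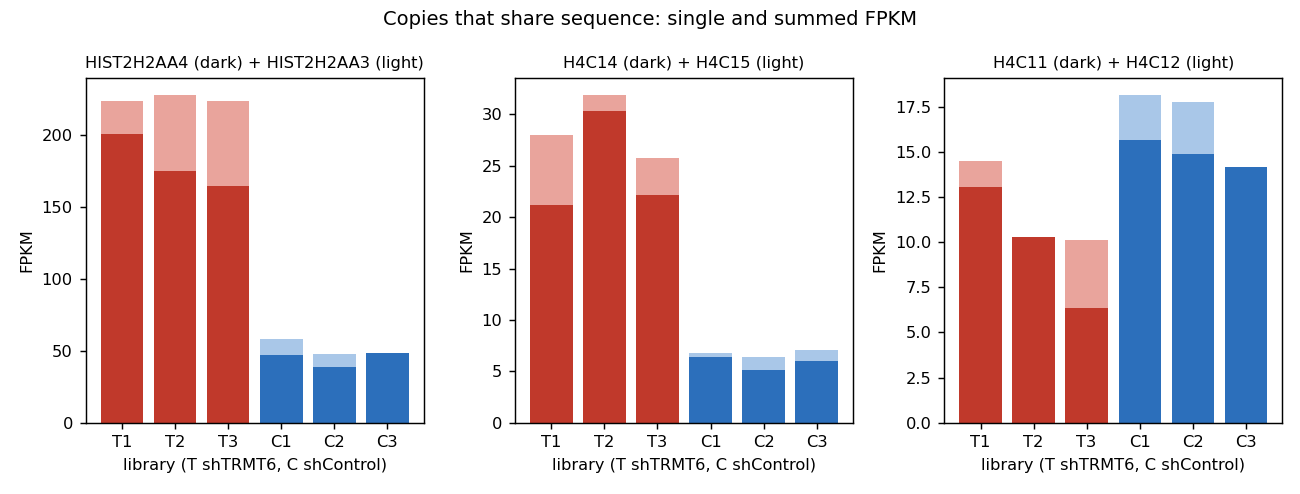
FPKM of 3 pairs of genes that share sequence, stacked, in shTRMT6 libraries 1 to 3 (T, red) and shControl libraries 1 to 3 (C, blue). The division within a pair varies between libraries, while the stacked heights of the first pair are 223.29 to 227.59 FPKM in shTRMT6 and 47.76 to 58.19 FPKM in shControl.

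H2AC25 (chromosome 1, bases 228456979 to 228457873), formerly HIST3H2A and outside the large clusters, shares none of its windows with another gene. It read 33.45, 31.94 and 35.29 FPKM in shTRMT6 and 16.02, 16.13 and 11.69 FPKM in shControl. The groups were far apart, with a 2.30-fold higher mean (log2 fold change 1.16, SE 0.12, adjusted p = 4.59e-05).

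The other H2A genes that rose lie on chromosome 6 and were less abundant. H2AC8 read 5.28, 5.50 and 4.58 FPKM in shTRMT6 and 1.45, 1.70 and 1.66 FPKM in shControl, a 3.19-fold difference (adjusted p = 3.06e-05). H2AC11 read 3.23, 3.20 and 2.67 FPKM in shTRMT6 and 0.82, 0.79 and 0.83 FPKM in shControl, 3.73-fold higher (adjusted p = 5.33e-05). Both have nearly no sequence in common with other genes at this window size, and in both the shControl libraries agree closely. H2AC13 and H2AC14 share 60.1% and 82.4% of their windows with each other and rose 4.35-fold and 3.25-fold. Their sum was 10.11, 8.76 and 6.95 FPKM in shTRMT6 and 2.19, 2.77 and 2.16 FPKM in shControl. H2AC7 rose 5.08-fold, and 97.8% of its windows lie in the overlapping annotated gene AL031777.3, which also covers H3C4; H2AC17 rose 1.70-fold and overlaps a transcript of H3C12. Which gene these fragments came from is uncertain.

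H2AC20 went the other way. It read 1.61, 2.56 and 1.57 FPKM in shTRMT6 and 3.36, 3.25 and 2.70 FPKM in shControl, 1.62-fold lower in mean (log2 fold change -0.51, SE 0.15, adjusted p = 0.0189). The gap between the groups was narrow, 2.56 against 2.70 FPKM. H2AC20 shares 23.7% of its windows with HIST2H2AA4, which rose, so how fragments were divided between them is uncertain. The call ended in 5 of 18 alternatives, among them the GC correction (adjusted p = 0.101) and leaving out shTRMT6 replicate 1 (0.0829), shTRMT6 replicate 3 (0.0713) or shControl replicate 1 (0.0528).

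Among H2B genes 3 of 4 tested rose, where 19.3% of all tested genes rose. Of the 3, H2BC8 and H2BC15 had shControl means under 1 FPKM and passed the filter only through their shTRMT6 level. H2BC8 (chromosome 6, bases 26215159 to 26216692) had the largest ratio of the 56 genes among those with a value above 0 in every library. It read 3.57, 3.18 and 4.05 FPKM in shTRMT6 and 0.45, 0.45 and 0.55 FPKM in shControl, 7.45-fold higher (log2 fold change 1.63, SE 0.13, adjusted p = 4.73e-06). H2BC11 read 5.38, 6.52 and 4.98 FPKM in shTRMT6 and 0.98, 1.00 and 1.24 FPKM in shControl, 5.24-fold higher (log2 fold change 1.67, SE 0.13, adjusted p = 4.73e-06). Neither group came near the other in these genes. H2BC15 read 2.34, 2.19 and 2.45 FPKM in shTRMT6 and 0.76, 0.45 and 0.65 FPKM in shControl (adjusted p = 0.000141); its annotated transcripts overlap H2AC15 on the other strand and H2AC16. H2BC13 read 1.22, 0.90 and 0.85 FPKM in shTRMT6 and 1.32, 0.53 and 1.58 FPKM in shControl, with overlapping groups (adjusted p = 0.773).

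Both tested H3 genes rose, where 19.3% of all tested genes rose, but H3C6 passed the filter only through its shTRMT6 level. H3C10 (chromosome 6, bases 27810064 to 27811300), which encodes histone H3.1, read 6.40, 6.21 and 7.03 FPKM in shTRMT6 and 1.83, 1.23 and 1.45 FPKM in shControl. Its mean was 4.35-fold higher (log2 fold change 1.60, SE 0.13, adjusted p = 5.07e-06). H3C6, another H3.1 gene, read 1.91, 1.95 and 1.72 FPKM in shTRMT6 and 0.40, 0.56 and 0.30 FPKM in shControl, 4.43-fold higher (adjusted p = 0.000177). Neither shares a window with another gene, and the groups are apart in both. The H3.2 genes H3C14 and H3C15 are annotated with identical sequence and were listed with identical values in all 6 libraries: 1.19, 1.11 and 1.28 FPKM each in shTRMT6 and 0.72, 0.55 and 0.64 FPKM each in shControl. Each alone fell under the filter, and as a sum they rose 1.87-fold (limma log2 fold change 0.58, SE 0.13, adjusted p = 0.00402).

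H4 genes showed no common direction. H4C11 (chromosome 6, bases 27824108 to 27824480) was the most abundant H4 gene of the 56 and fell. It read 13.04, 10.30 and 6.34 FPKM in shTRMT6 and 15.66, 14.86 and 14.17 FPKM in shControl, 1.51-fold lower (log2 fold change -0.59, SE 0.18, adjusted p = 0.0221). The shTRMT6 libraries spread widely, and the call was lost with the GC correction (adjusted p = 0.103), with low genes kept in (0.113), and on leaving out shTRMT6 replicate 3 (0.0635) or shControl replicate 1 (0.0701). H4C12, all of whose windows also occur in H4C11, was listed at 0 in shTRMT6 replicate 2 and shControl replicate 3 and did not pass (adjusted p = 0.931). With H4C12 added, H4C11 gave 14.48, 10.30 and 10.14 FPKM in shTRMT6 and 18.15, 17.74 and 14.17 FPKM in shControl. The groups then overlapped at 1 library each, and limma still called the sum lower (log2 fold change -0.49, adjusted p = 0.0163).

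H4C15 rose on its own row, at 6.84, 1.56 and 3.59 FPKM in shTRMT6 and 0.44, 1.25 and 1.00 FPKM in shControl (log2 fold change 1.28, SE 0.30, adjusted p = 0.00578). It shares 97.1% of its windows with H4C14, and the call was lost under a robust prior (adjusted p = 0.0629) or with low genes kept in (0.066). The sum of both copies was 28.02, 31.89 and 25.72 FPKM in shTRMT6 and 6.80, 6.38 and 7.05 FPKM in shControl, 4.23-fold higher. The 3 tested H4 genes of the 56 thus all share most of their sequence with another histone gene.

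Of the 19 tested genes, 9 shared at most 10% of their windows with any other gene. In these 9, 8 rose, none fell and H2BC13 did not pass. Of the 10 that shared more, 7 rose, 2 fell and 1 did not pass. With shControl means under 1 FPKM, 4 of the 9 and 3 of the 10 passed the filter only through their shTRMT6 level. Both counts are thus partly set by the filter. Over all tested genes 19.3% rose and 16.1% fell.

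The 28 genes with a mean above 0 and under 1 FPKM had no test, and no single library read over 1.36 FPKM. In 11 of them every shTRMT6 library was above every shControl library, and in 2 every shTRMT6 library was below; over all 4423 genes in this range the shares were 6.65% and 5.25%. H3C8 read 1.05, 1.18 and 1.12 FPKM in shTRMT6 and 0.42, 0.63 and 0.29 FPKM in shControl. H2BC18 read 0.74, 0.76 and 1.17 FPKM in shTRMT6 and 0.09, 0.29 and 0.25 FPKM in shControl. Both were thus higher in each shTRMT6 library, as were H3C14 and H3C15 above. H3C14 and H3C15, whose values are identical, are both counted among the 11. H4C4 (1.36, 1.09 and 0.77 FPKM in shTRMT6; 1.03, 0.75 and 0.26 FPKM in shControl), H4C16, H2BC9 and H3C4 complete the 8 most abundant of these genes. Of these 4, H2BC9 alone had groups that did not overlap, at 0.58, 0.64 and 0.55 FPKM in shTRMT6 and 0.47, 0.46 and 0.44 FPKM in shControl.

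The 2 genes that were lower in each shTRMT6 library, chosen after their values were seen, were H3C7 and H2BC10. H3C7 read 0.10, 0 and 0.10 FPKM in shTRMT6 and 0.37, 0.26 and 0.21 FPKM in shControl. H2BC10 was listed at 0 in the shTRMT6 libraries and read 0.10, 0.09 and 0.29 FPKM in shControl, which is the worth of about 1 to 3 fragments. With low genes kept in, limma called 8 of the 28 higher and 1 (H3C7) lower, where 10.5% and 9.13% of 15015 genes were called. The 8 include both H3C14 and H3C15, whose values are identical. The 9 genes listed at 0 throughout include H2AC1 and H2BC1, the testis-type H2A and H2B genes. Of 4 testis markers, DDX4, PRM1, PRM2 and TNP1, 3 were listed at 0 in all libraries and the sum reached 0.03 FPKM.

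Summed by class, H2A, H2B and H3 were higher in each shTRMT6 library and H4 was not. The 16 H2A genes summed to 286.5, 288.1 and 281.0 FPKM in shTRMT6 and 85.4, 75.8 and 70.7 FPKM in shControl, 3.69-fold higher in mean. Without HIST2H2AA3, HIST2H2AA4 and H2AC25, the other 13 H2A genes summed to 26.8 ± 3.83 FPKM in shTRMT6 and 11.1 ± 0.795 FPKM in shControl (SD, n = 3 each), so the size of the H2A sum rests on the 3. The 14 H2B genes summed to 15.8 ± 0.717 FPKM in shTRMT6 and 4.83 ± 0.927 FPKM in shControl. The 13 H3 genes summed to 13.2 ± 1.06 FPKM in shTRMT6 and 5.15 ± 0.86 FPKM in shControl.

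The 13 H4 genes summed to 25.07, 15.24 and 16.74 FPKM in shTRMT6 and 20.65, 22.07 and 16.92 FPKM in shControl, with overlapping groups. The direction of the H4 sum changed with the genes kept: its log2 ratio was 0.88 with H4C8 and H4C14 added and 0.56 over the H4 genes that share at most 10% of their windows, and it turned positive without shTRMT6 replicate 2 (0.073) or 3 (0.02) or shControl replicate 2 (0.018). These sums carry no p, since the genes were chosen with results known. H2A made up 85.6% of the summed FPKM of the 56 genes in shTRMT6 and 72.1% in shControl, while H4 made up 5.71% in shTRMT6 and 18.6% in shControl. These shares depend on the 7 genes left out. With the 7 included, H2A averaged 310.0 of 561.1 FPKM in shTRMT6 and 82.0 of 146.2 FPKM in shControl. H2B then averaged 188.4 FPKM in shTRMT6 and 32.2 FPKM in shControl.

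**Figure D3:**
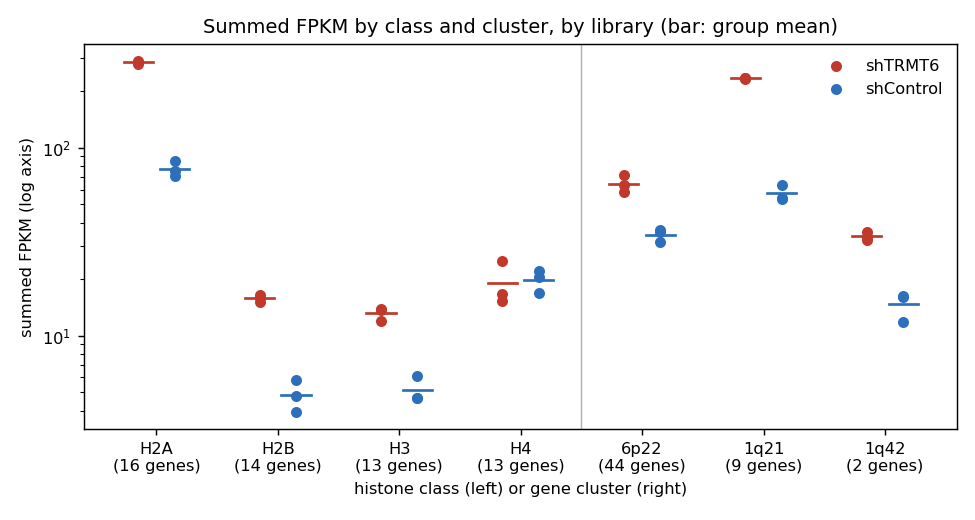
Summed FPKM (log axis) of the genes of each histone class (left) and each gene cluster (right) in the 3 shTRMT6 (red) and 3 shControl (blue) libraries, with group means as bars. The groups are apart in every column but H4, where they overlap at 15.24 to 25.07 FPKM in shTRMT6 and 16.92 to 22.07 FPKM in shControl.

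By position, the large cluster 6p22 on chromosome 6 holds 44 of the 56 genes, 1q21 on chromosome 1 holds 9, 1q42 holds 2 and chromosome 12 holds H4C16. In 6p22, 14 genes were tested, of which 11 rose and 1 fell. All 6 tested H2A genes rose there and none of the 2 tested H4 genes did. With shControl means under 1 FPKM, 6 of the 14 passed the filter only through their shTRMT6 level, among them 3 of the 6 H2A genes. All 9 genes listed at 0 lie in 6p22. In 1q21, 3 of 4 tested genes rose and 1 fell, and the 5 others, among them the identical H3C14 and H3C15, had higher means in shTRMT6. Of the 4, 1 (H4C15) passed the filter only through its shTRMT6 level. The counts by cluster are thus partly set by the filter. Over all tested genes 19.3% rose and 16.1% fell. The 6p22 genes summed to 71.31, 63.53 and 57.99 FPKM in shTRMT6 and 36.44, 35.54 and 31.61 FPKM in shControl. The 1q21 genes summed to 235.89, 235.03 and 232.73 FPKM in shTRMT6 and 63.73, 53.65 and 54.18 FPKM in shControl. The ratios were 1.86 and 4.10. HIST2H2AA3 and HIST2H2AA4, which lie in 1q21, together averaged 224.8 FPKM in shTRMT6 and 51.6 FPKM in shControl. The difference between the clusters depends on the genes kept. With the 7 genes left out for their rise included, the ratios were 3.94 in 6p22 and 4.11 in 1q21. Over the 6p22 genes sharing at most 10% of their windows the ratio was 3.03.

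Genes that rose were not confined to 1 stretch of 6p22, and genes that were not tested or did not pass stood between them. H2A and H2B genes often lie head to head with a short shared promoter region. Of 11 such H2A and H2B neighbours with starts within 1000 bases (219 to 331 bases apart), both genes rose in 3. These were H2AC8 with H2BC8, H2AC11 with H2BC11 and H2AC6 with H2BC4. H2AC6, H2BC4, H2BC12 and H2BC21 belong to the group left out for its rise. H2BC8, H2AC11, H2AC7 and H2AC13 passed the filter only through their shTRMT6 level. Nothing is therefore read from the counts of pairs. Over all tested genes 19.3% rose. In 5 others 1 gene rose and its partner was too low to test. Of the 5 partners, H2BC7 and H2BC26 were higher in each shTRMT6 library, and H2BC17, H2BC14 and H2AC12 overlapped. H2BC7, the partner of H2AC7, read 0.71, 0.60 and 0.26 FPKM in shTRMT6 and 0, 0.18 and 0.18 FPKM in shControl. H2BC26, the partner of H2AC25, read 0.29, 0.28 and 0.20 FPKM in shTRMT6 and 0.08, 0.09 and 0.19 FPKM in shControl. Both lie in the direction of their partners. H2BC14, the partner of H2AC14, read 0, 0.35 and 0 FPKM in shTRMT6 and 0, 0.09 and 0.15 FPKM in shControl. H2AC12, the partner of H2BC12, averaged 0.04 FPKM in shTRMT6 and 0.133 FPKM in shControl, while H2BC12 averaged 133.3 FPKM in shTRMT6 and 20.5 FPKM in shControl. In the neighbours H2BC21 and H2AC20 the first rose (15.2 FPKM in shTRMT6 and 3.67 FPKM in shControl) and the second fell. In the neighbours H2AC13 and H2BC13, both tested, the first rose 4.35-fold and the second did not pass. H2BC13 averaged 0.99 FPKM in shTRMT6 and 1.14 FPKM in shControl. The neighbours H2AC1 and H2BC1 were listed at 0 in every library and were not tested.

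**Figure D4:**
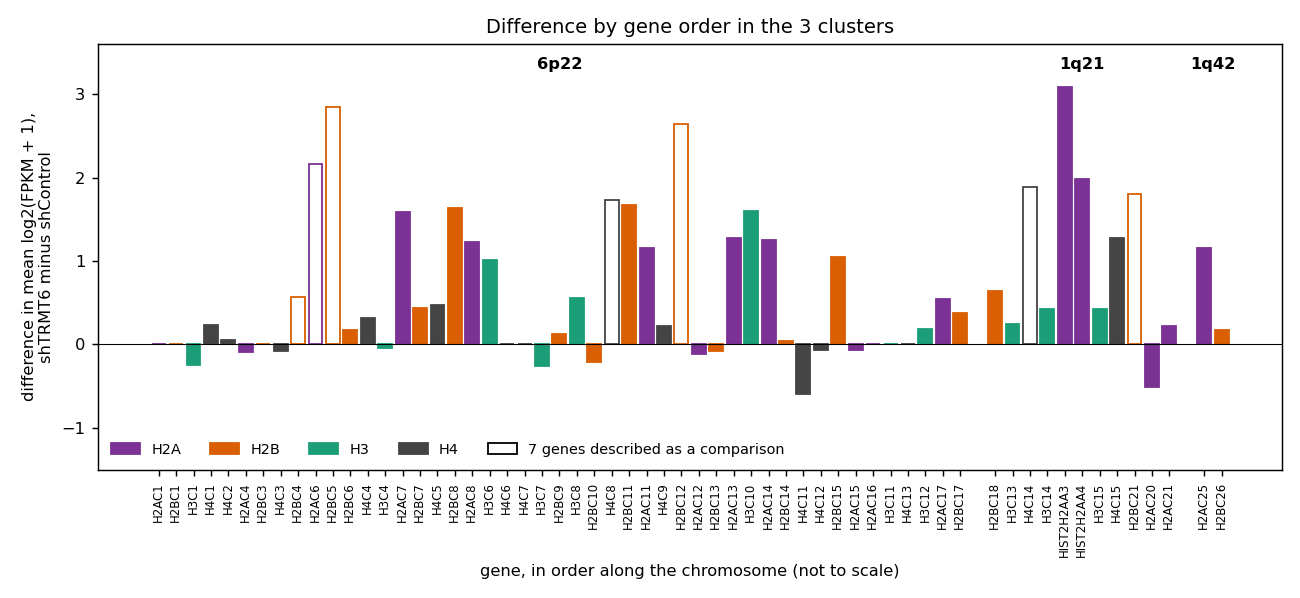
Difference in mean log2(FPKM + 1), shTRMT6 minus shControl, for each gene in order along the 3 clusters (not to scale), coloured by histone class; open bars are the 7 genes used as a comparison. H3C2, H3C3 and H4C16 are not drawn. Bars above 1 stand in several stretches of 6p22 and in 1q21, next to genes near 0; the lowest bars are H4C11 (-0.59) and H2AC20 (-0.51).

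The genes also differed by how far their annotated transcripts run past the stem-loop. In GENCODE release 29, 18 of the 56 genes had a transcript that goes on for over 100 bases after the stem-loop (212 to 1917 bases), and 12 of the 18 hold AATAAA, the usual poly(A) signal, there (given strand only). In 7 genes the stem-loop was followed by 6 to 86 bases, in 29 no stem-loop was annotated, mostly because the model stops at the coding sequence, and 2 genes had no annotation. The bound of 100 bases was chosen after the values were seen.

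All 7 tested genes with the long ends rose (H2AC11, H2AC25, H2BC8, H2BC15, H3C6, H3C10 and H4C15), but 5 of the 7, all but H2AC25 and H3C10, had a shControl mean under 1 FPKM and were tested only through their shTRMT6 level, so nothing is read from that count. The same held for 1 of the 6 tested genes with no annotated stem-loop. Of the 11 untested ones with long ends 10 were higher in each shTRMT6 library and H4C16 overlapped. H3C14 and H3C15, whose values are identical, are both among the 10. Among the 29 genes with no annotated stem-loop, 4 of 6 tested rose, 1 fell and 1 did not pass. Of the 15 untested ones above 0, 1 was higher and 2 were lower in each shTRMT6 library, and 12 overlapped. The median difference in log2(FPKM + 1) over genes above 0 was 0.51 for the long ends, 1.23 for the short ends and 0.036 for those with no annotated stem-loop. Among genes that share at most 10% of their windows, 12 of 13 with long ends and 2 of 20 with no annotated stem-loop had shTRMT6 libraries all above shControl libraries. Of these 20, 8 were listed at 0 in all libraries and could not differ, against 0 of the 13. Over all genes the share was 26.2% at a mean of 1 FPKM or more and 6.65% below it.

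Model length moves with this grouping. The median longest transcript was 1806 bases for the long ends and 393 bases for those with no annotated stem-loop. By the same rough depths, 1 fragment in a model of 2000 bases would be worth 0.0249 to 0.0279 FPKM in shTRMT6 and 0.0177 to 0.0237 FPKM in shControl. Low levels are thus resolved more finely than in a short model. The part of length, or of reads lying past the end of a short model, was not tested. Nor do gene-level values show where in a gene the fragments lie.

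**Figure D5:**
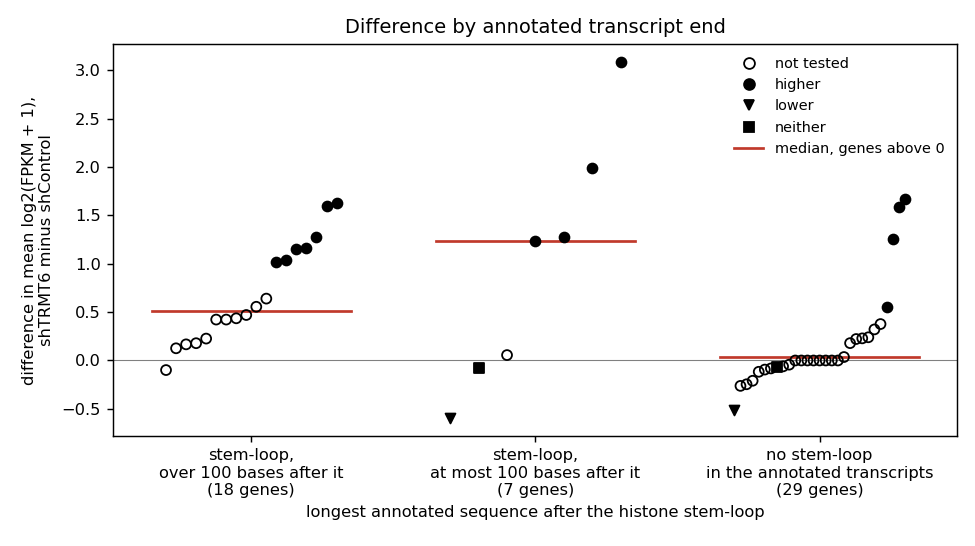
Difference in mean log2(FPKM + 1), shTRMT6 minus shControl, of 54 genes by the longest annotated sequence after the histone stem-loop; filled circles rose, triangles fell, squares did not pass and open circles were not tested, and red lines are medians over genes above 0. Of the 18 genes with over 100 bases after the stem-loop 17 lie above 0, while the genes with no annotated stem-loop lie around a median of 0.036. H3C14 and H3C15, whose values are identical, are both among the 17.

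Promoters were read from RefSeq (GRCh38.p14, 250 bases before to 50 after the start), which gave 51 of the 56 genes; H2AC12, H3C11, H3C12, H4C1 and H4C3 were not matched. They were searched on both strands for CCAAT (bound by NF-Y), ATTTGCAT (the octamer of histone H2B promoters, bound by POU2F1) and TATAAA, none of which contains another. CCAAT was in 15 of 15 H2A, 14 of 14 H2B, 11 of 11 H3 and 3 of 11 H4 promoters, against 34.6% of 34796 promoters. ATTTGCAT was in 11 of 14 H2B and 10 of 15 H2A promoters, 1 of 11 H3 and 0 of 11 H4 promoters, against 1.76%. The H3 promoter with the octamer, that of H3C4, is the same window as that of H2AC7, so in each of these counts H3C4 repeats H2AC7. TATAAA was in 34 of the 51, against 11.6%. Since H2A and H2B neighbours share the region between them, their promoter windows are not independent. The promoters of H2BC8, which rose most in ratio, and of H2AC20, which fell, show that the same 3 words occur in both. The H2AC20 window overlaps that of its neighbour H2BC21 (chr1:149886633-149886932 on the minus strand), which rose and also holds the 3 words. The words shown for H2AC20 are thus not those of a gene that fell alone. Capitals mark the 3 words on either strand, with H2BC8 at chr6:26216639-26216938 on the minus strand and H2AC20 at chr1:149886668-149886967 on the plus strand.
H2BC8: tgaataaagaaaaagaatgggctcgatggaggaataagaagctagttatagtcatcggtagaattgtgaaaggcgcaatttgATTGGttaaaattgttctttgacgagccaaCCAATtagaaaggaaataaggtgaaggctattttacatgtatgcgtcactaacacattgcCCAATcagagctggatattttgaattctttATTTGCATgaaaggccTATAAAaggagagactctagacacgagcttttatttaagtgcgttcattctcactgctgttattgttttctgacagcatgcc
H2AC20: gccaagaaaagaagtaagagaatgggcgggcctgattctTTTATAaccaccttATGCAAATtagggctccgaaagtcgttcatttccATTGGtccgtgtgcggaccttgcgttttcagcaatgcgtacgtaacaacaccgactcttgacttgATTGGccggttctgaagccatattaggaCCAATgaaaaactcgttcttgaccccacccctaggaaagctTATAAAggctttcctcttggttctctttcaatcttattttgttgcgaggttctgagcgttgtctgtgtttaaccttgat
A word in these windows is a description of the letters and not of binding.

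The 7 histone genes kept apart were grouped for their rise in these data, so that all 7 rose is no new result. Their ratios ran from 1.99 (H2BC4) to 9.97 (H2BC5). Those of the 15 genes called higher here overlap them, at 1.70 (H2AC17) to 7.45 (H2BC8). Of the 15, 7 passed the filter only through their shTRMT6 level. Both groups are thus selected for being higher, and nothing is read from the overlap. H2BC5 averaged 22.03 FPKM in shTRMT6 and 2.21 FPKM in shControl, and H2BC4 averaged 2.00 FPKM in shTRMT6 and 1.01 FPKM in shControl. H2BC4 thus changed less than 14 of the 15.

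Factors that transcribe, process or degrade histone mRNA had a median change near that of all tested genes. Of 35 listed and tested, 10 rose, 3 fell and 22 did not pass, where 19.3% of all tested genes rose and 16.1% fell. Their median log2 fold change was 0.039, against 0.024 over all tested genes. Nothing is read from these counts about the list as a whole. With the replicate number as a block 7 of the 35 fell, as did 2252 of all 10592 genes. CPSF3, the nuclease that cuts histone pre-mRNA and polyadenylated pre-mRNA, averaged 31.6 ± 3.72 FPKM in shTRMT6 and 19.96 ± 1.23 FPKM in shControl (SD, n = 3 each; limma adjusted p = 0.000941). CSTF3, of the cleavage stimulation complex, rose 1.48-fold, and PABPC1, which binds poly(A) tails, rose 1.40-fold. SRRT (ARS2), which links the cap-binding complex to histone mRNA processing, fell 1.43-fold, CDK2, which with cyclin E activates NPAT, fell 1.33-fold, and CPSF1 fell 1.34-fold. Without shTRMT6 replicate 1 only 6 rose, and without shTRMT6 replicate 2 only 5.

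ERI1, the exonuclease that binds the histone stem-loop, rose 1.40-fold, and HINFP, a transcription factor of H4 genes, rose 1.29-fold; both were picked from the list after their values were seen. SLBP, NPAT, CASP8AP2, LSM10, LSM11 and ZNF473 did not pass the test. SLBP averaged 53.2 ± 4.89 FPKM in shTRMT6 and 57.4 ± 0.895 FPKM in shControl (SD, n = 3 each; limma adjusted p = 0.4). NPAT, the activator of histone transcription, averaged 3.04 FPKM in shTRMT6 and 2.78 FPKM in shControl. CASP8AP2, which works with NPAT, averaged 1.46 FPKM in shTRMT6 and 2.00 FPKM in shControl. The U7 particle proteins LSM10 and LSM11 and its partner ZNF473 had log2 fold changes of -0.07, -0.042 and 0.076.

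S phase genes were lower on balance. Of 43 genes listed as markers of S phase, all tested, 15 fell, 1 rose and 27 did not pass, with a median log2 fold change of -0.22, where 16.1% of all tested genes fell and 19.3% rose. With the GC correction 30 of the 43 fell, as did 2047 of all 10592 genes. The helicase subunits MCM5 and CDC45 fell 1.89-fold and 1.60-fold, and RRM1, a subunit of ribonucleotide reductase, rose 1.24-fold. Summed over the list, S phase genes read 1163 to 1387 FPKM in shTRMT6 and 1539 to 1626 FPKM in shControl. The part of cell cycle distribution in the histone values was not tested.

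Outside the core histones, the genes whose log2(FPKM + 1) values followed the log2 summed FPKM of the 56 genes most closely over the 6 libraries were HABP4 (Pearson r = 0.9986), ID1 (0.9972), CCDC71L (0.9971) and MACROH2A2 (0.9957). MACROH2A2, a replacement histone, read 44.56, 45.80 and 42.73 FPKM in shTRMT6 and 30.20, 29.28 and 27.79 FPKM in shControl. ID1 read 14.45, 12.55 and 12.13 FPKM in shTRMT6 and 4.18, 3.69 and 3.54 FPKM in shControl. All 4 follow the difference between the groups, which the libraries share, so the coefficients are descriptions with no p.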

How the data were processed

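Per the file headers, the deposited values are FPKM, 1 for each gene in each library; the columns, named NC and SH with a number, were matched to the sample titles. RSEM, HISAT2, StringTie 1.3.1, fastp 0.18.0 and Bowtie2 2.2.8 are named, with no roles, in the submitters' processing notes; build and annotation are not given in the sources used here. Identifiers were paired with symbols by a names table (20257) or GENCODE release 29 (30). Coordinates, lengths and windows of 75 bases come from release 29 (GRCh38). Genes averaging 1 FPKM or more were tested with limma 3.58.1 (R 4.3.3) on log2(FPKM + 1), which understates changes of low genes, with a trended prior, two-sided, Benjamini-Hochberg adjusted, threshold 0.05; the fit was tested on simulated data. Depth is a rough estimate from genes of 1 transcript of at most 1000 bases.

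The members and lists were chosen with earlier results of these data known. Named genes were every tested member, the 8 most abundant untested ones, up to 3 per direction from 2 lists with 6 fixed factors, and 4 genes by likeness; not every gene meeting it is reported here. Deviations from group means correlated by 0.21, 0.36 and 0.17 between libraries of the same replicate number and by -0.29 to 0.094 otherwise, which pairs the numbers by the data and not by the labels. Alternatives were other pseudocounts, filters, scalings and priors, the replicate block, a GC correction, summed copies and each library left out.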

Additional observations from a re-analysis of the deposited data

How the results depend on the processing

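Of the 19 tested genes, 15 kept their result in every alternative that tested them. These include H2BC13 and H4C12, which passed in none. HIST2H2AA3 and H4C15, which rose, and H2AC20 and H4C11, which fell, lost their call in some alternatives. The replicate block left all 15 genes called higher in the main fit higher and the 2 called lower lower. It moved no count but that of the histone mRNA factors that fell (7) by over 1.5 times. Members lower numbered 0 with the GC correction, 1 with no filter and 1 with a mean of at least 5 FPKM, where 3 were higher; without single libraries the count ran from 0 to 2, at 0 without shTRMT6 replicate 3 or shControl replicate 1. With the GC correction 6 histone mRNA factors and 30 S phase genes were lower, with the block as well 10, 32 and 2602 of all genes; with median-of-ratios scaling 6 histone mRNA factors. S phase genes higher were 0 with no filter, median-of-ratios scaling, no variance trend or the GC correction. With single libraries left out, all genes higher ran from 1284 to 2073 and lower from 1112 to 1724, histone mRNA factors higher from 5 to 10 and lower from 3 to 5, and S phase genes higher from 0 to 2. Over genes sharing at most 10% of windows the log2 ratios of summed FPKM were 1.28 (H2A), 1.73 (H3), 0.56 (H4), 1.60 (chromosome 6) and 1.21 (chromosome 1). With the 7 genes included they were 2.55 (H2B), 0.88 (H4) and 1.98 (chromosome 6). The H4 value was -0.064 over all members and ran from -0.31 to 0.073 without single libraries. Summing H4C11 with H4C12 and H2AC13 with H2AC14, chosen after seeing the data, left 12 of the 15 higher, since merged genes no longer have a row of their own, added H3C14 with H3C15, and kept H4C11 and H2AC20 lower. The causes of these shifts were not tested. Depth limits short genes under 1 FPKM to a few fragments.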

Other observations

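ALB, the serum albumin gene of liver, read 10.74 FPKM in shControl replicate 2 and 0 to 0.04 FPKM in the other libraries. H3C14 and H3C15 were the only pair of core histone genes above 0 with identical values in all 6 libraries.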
